A study of Mus musculus with 64 samples.

Results

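The 10 genes Nqo1, Hmox1, Gclm, Gclc, Txnrd1, Srxn1, Slc7a11, Gsta3, Gsr and Nfe2l2 encode the transcription factor NRF2 and proteins of the antioxidant and detoxifying response that NRF2 is known to drive. They were chosen by symbol, with no threshold on a measured value, and are 10 of the 55487 genes counted and 10 of the 14537 genes with enough counts to be tested. Their mRNA was measured in bone marrow-derived macrophages (BMMs), which are macrophages grown from mouse bone marrow for 6 days in medium conditioned by the fibroblastic line L929, a source of the growth factor M-CSF.

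The BMMs came from female Ahr+/+ mice (C57BL/6JRj wild type) and from Ahr-/- mice, a knockout of the aryl hydrocarbon receptor (AhR) that had been backcrossed to that strain. Mice were 8 to 12 weeks old, and the study used 4 mice of each genotype. BMMs were kept for 6 h with 1 µM benzo[a]pyrene (BaP, a polycyclic aromatic hydrocarbon that binds AhR strongly), 10 µM indole-3-carbinol (I3C, a weaker AhR ligand derived from cruciferous vegetables) or 0.01% DMSO, the vehicle. The bacterium Salmonella enterica serovar Enteritidis, killed by heat (hk S.E.) and a source of bacterial patterns that activate macrophages, was then added at 10000000 per ml for 3 h or 20 h. The 16 groups of 4 libraries are, for each genotype and time point, unactivated BMMs (DMSO without hk S.E.) and activated BMMs, which were given hk S.E. following DMSO, BaP or I3C. The medium of every group held 50 µM β-mercaptoethanol, a reducing agent. No group held a ligand without hk S.E., so ligand was compared with DMSO in activated BMMs alone, and the 2 ligands were given at different doses.

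The libraries' totals over all genes ran from 12152496 to 50644601 counts (median 24499165), apart from 1 unactivated Ahr+/+ library at 20 h with 233047331. Ahrr, which AhR induces, lay between 0.346 and 0.582 CPM (counts scaled to a common library total) in the Ahr+/+ libraries with DMSO and hk S.E. at 3 h, between 1.83 and 2.55 with I3C and between 4.18 and 6.96 with BaP. In Ahr-/- libraries it stayed at or below 0.551 at 3 h and at or below 1.18 at 20 h with either ligand. The count of Ahr itself does not check the deletion, because it covers the whole gene and was higher in Ahr-/- than in Ahr+/+ BMMs (21.3 to 28.1 against 11.9 to 14.9 CPM with DMSO and hk S.E. at 20 h). All 8 macrophage markers were detected, with a summed level of 25460 to 32876 CPM in unactivated and 18609 to 35732 CPM in activated libraries, whereas the T and NK cell, B cell and mast cell lists each summed to less than 1 CPM in every library. Neutrophil precursor markers summed to 3.37 to 26.0 CPM in unactivated and 1.89 to 88.8 CPM in activated libraries with Elane, Mpo and Prtn3 below the test's filter, fibroblast markers to 0.552 to 8.72 and 3.37 to 29.5 CPM, and dendritic cell markers to at most 0.426 and 2.46 CPM. The highest sums of the last 3 lists were found in activated libraries, and their part in the results was not tested. In bulk RNA, fewer cells expressing a gene and less RNA per cell cannot be told apart.

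NRF2 is bound by KEAP1, which presents it to the CUL3 ubiquitin ligase and so keeps it scarce. Oxidants and electrophiles modify KEAP1, NRF2 then accumulates, pairs with a small MAF protein and binds the antioxidant response element (ARE) of genes that make glutathione and thioredoxin reductants, degrade heme and conjugate foreign compounds. AhR, when bound by a ligand, pairs with ARNT and binds the aryl hydrocarbon response element (AHRE). Nqo1 is the textbook gene that both factors induce, and macrophages raise cystine import and heme oxygenase when bacterial products activate them.

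The cores of these elements are shown here because they are the letters through which both factors are known to act. RefSeq promoters on GRCm38.p6, from 250 bases before to 50 bases after a start, were at hand for 7 of the 10 genes. Both strands were searched for the ARE core TGACNNNGC and the AHRE core GCGTG. The capitals below mark the core, with up to 8 bases on either side, read 5′ to 3′ on the strand named, and no ARE core shares bases with an AHRE core.
Gclm, ARE core, chr3:122245415-122245439, minus strand: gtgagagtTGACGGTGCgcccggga
Txnrd1, ARE core, chr10:82859106-82859130, minus strand: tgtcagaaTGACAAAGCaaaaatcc
Srxn1, ARE core, chr2:152105544-152105568, minus strand: tctcactcTGACCTAGCtgcccact
Gsta3, ARE core, chr1:21240456-21240480, plus strand: ctcaggcaTGACATTGCatttttct
Nfe2l2, ARE core, chr2:75704887-75704911, minus strand: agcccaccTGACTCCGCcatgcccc
Gclm, AHRE core, chr3:122245537-122245557, minus strand: tgcggcggGCGTGgcgccggg
Txnrd1, AHRE core, chr10:82859153-82859173, plus strand: agagcaggGCGTGgcttcccg
Srxn1, AHRE core, chr2:152105422-152105442, minus strand: gacgcacaGCGTGgtgactca
An ARE core was found in 5 of the 7 genes with a promoter and an AHRE core in 3, of which 1 site each is shown. These 7 genes had 9 promoters, because Txnrd1 had 3. The Txnrd1 sites shown lie in the only 1 of its 3 promoters with an ARE core. The shares that follow are counted per promoter, not per gene. Over all 32851 promoters of the same length, 12.4% held the ARE core, 32.4% the AHRE core and 4.79% both. The windows of Nqo1 and Slc7a11 held neither core, which says only that these letters are not in these 300 bases. In the direction of the gene, the most upstream base of the ARE core lay 134 bases before the start of Gclm, 121 before that of Gsta3 and 240 before that of Nfe2l2. That of Srxn1 lay 28 bases after its start. For Gclm and Srxn1 this base is the last of the core as printed.

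On GRCm38, Nqo1 lies at chr8:107388225-107403206 on the minus strand, Hmox1 at chr8:75093621-75100589 and Gsr at chr8:33652523-33698163. Gclm lies at chr3:122245557-122270732 and Slc7a11 at chr3:49892526-50443614 on the minus strand. Gclc lies at chr9:77754535-77794485, Txnrd1 at chr10:82833951-82897712, Srxn1 at chr2:152105516-152111376, Nfe2l2 at chr2:75675513-75704641 on the minus strand and Gsta3 at chr1:21240589-21265661. Exons of Gclm overlap those of Gm6061 on the same strand, so reads that both could own were left uncounted by the counting used. Gsta3 belongs to a family of similar glutathione S-transferases, so its small counts (47 to 995 per library) may be affected by reads that were not uniquely placed.

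Levels per kilobase of exon differed widely between the genes. Hmox1 had the highest level in unactivated BMMs and in activated BMMs at 20 h, and its group means ran from 104 CPM per kilobase to 1092, a 10.5-fold range over the 16 groups. In activated BMMs at 3 h Txnrd1 stood first, with group means that ran from 24.7 to 167 CPM per kilobase, and Srxn1 second, with 51.3 to 163, except in Ahr-/- BMMs with BaP, where Hmox1 (145) stood above it (136). Slc7a11 had the widest range, from 0.291 CPM per kilobase in unactivated Ahr-/- BMMs at 20 h to 31.6 in I3C-treated Ahr+/+ BMMs at 20 h, which is 109-fold. Nfe2l2 moved the least, from 45.9 to 97.4 CPM per kilobase, a 2.12-fold range. Gsta3 was the lowest of the 10 in every activated group, with group means over all groups of 0.641 to 2.44 CPM per kilobase, and Nqo1 (1.14 to 11.0) and Gclc shared the ranks just above it.

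**Figure D1:**
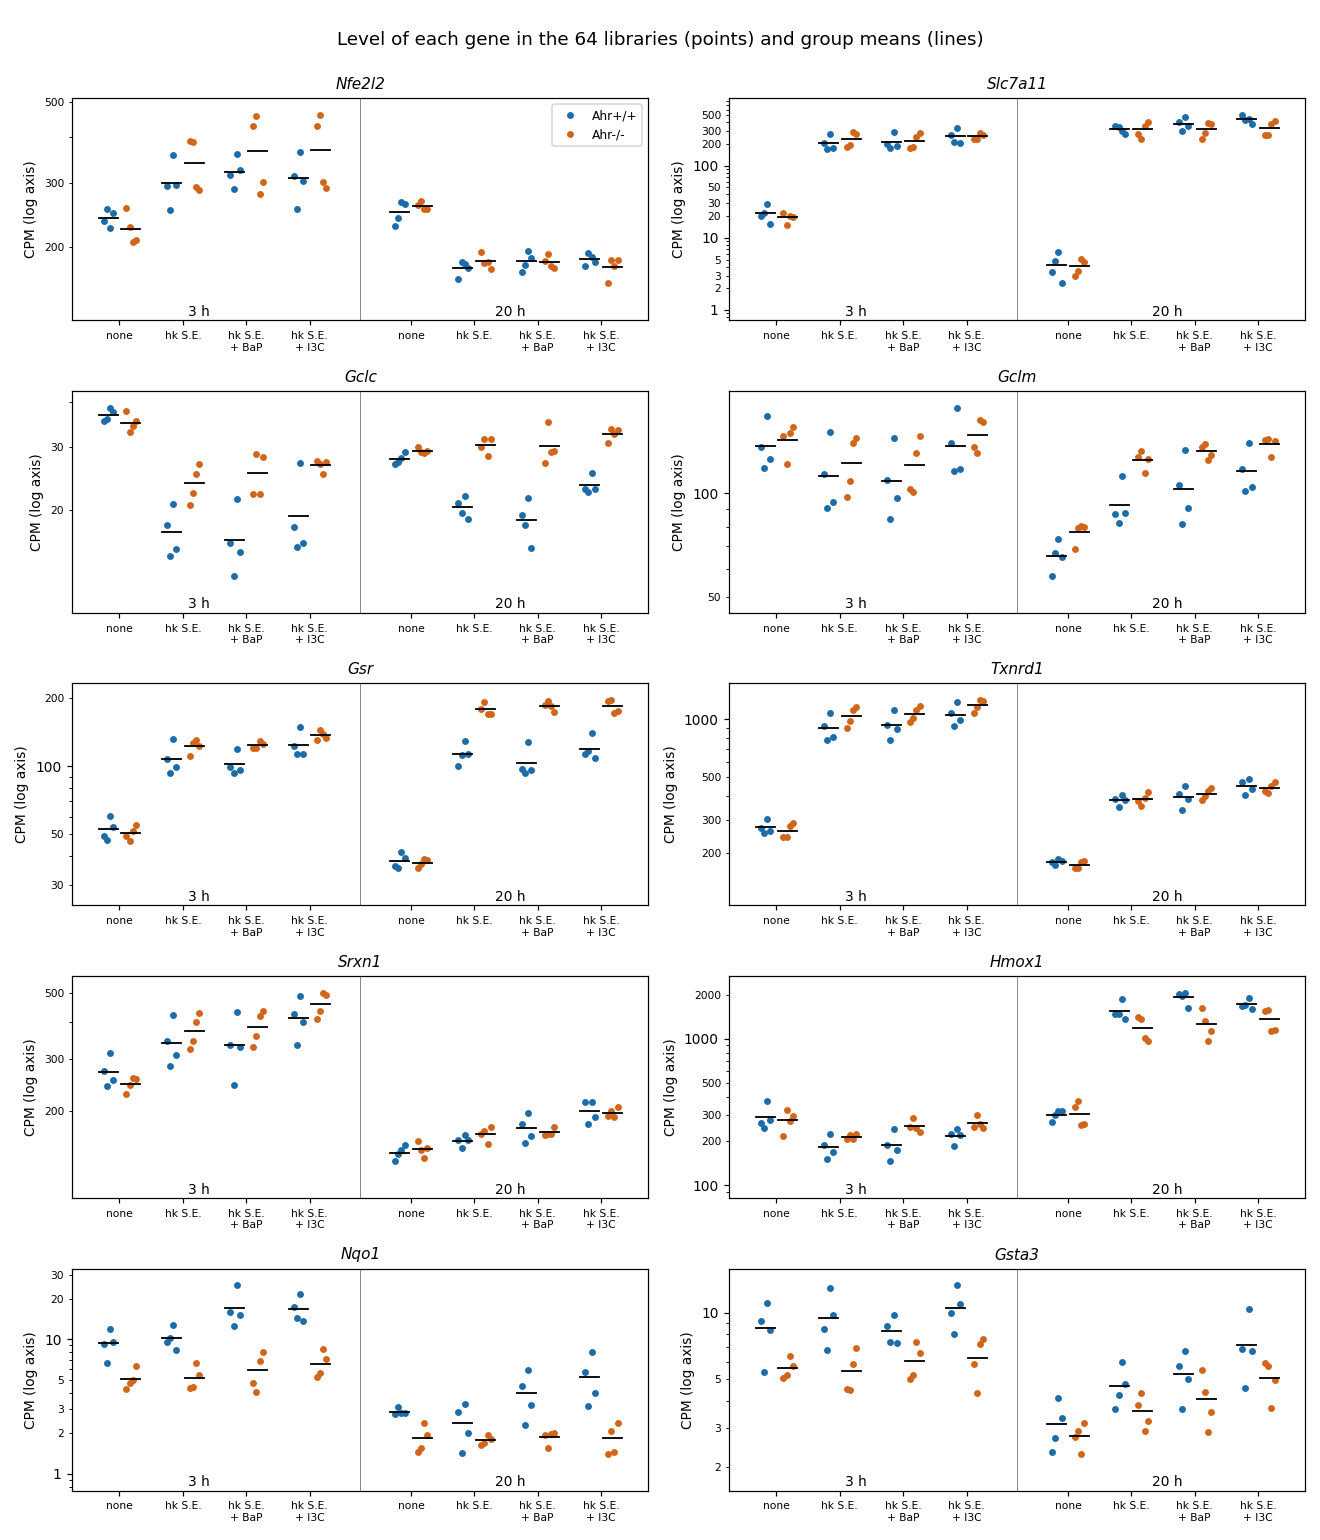
Level of each of the 10 genes in all 64 libraries (points, CPM on a log axis) with group means (lines), in Ahr+/+ (blue) and Ahr-/- (orange) BMMs, unactivated (none) or with hk S.E. alone, with BaP or with I3C, at 3 h and 20 h. Slc7a11 lay between 2.34 and 29.5 CPM in unactivated and between 173 and 505 CPM in activated libraries, and Hmox1 lay at 968 CPM or higher in activated libraries at 20 h and at 376 CPM or lower in all others.

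Activation with hk S.E. (DMSO with hk S.E. against DMSO alone) gave more calls among the 10 genes than ligand or genotype did, 25 in 40 tests. Slc7a11, Txnrd1 and Gsr rose in both genotypes at both time points, Hmox1 and Gclm rose at 20 h, and Nqo1 and Gsta3 passed the test in no comparison with hk S.E. In Ahr+/+ BMMs, 4 of the 10 rose and 2 fell at 3 h (edgeR's quasi-likelihood test, Benjamini-Hochberg adjusted p below 0.01), where 24.2% of all genes tested rose and 32.3% fell. At 20 h 5 rose and 2 fell, where 29.9% of all genes rose and 28.7% fell. In Ahr-/- BMMs 5 rose and 1 fell at either time, beside 25.5% and 31.8% of all genes at 3 h and 28.3% and 26% at 20 h. In either direction hk S.E. moved 56.6% and 58.6% of all genes in Ahr+/+ and 57.3% and 54.3% in Ahr-/- BMMs, so the 6 or 7 of the 10 called were near the background. A block for the replicate number changed none of these calls in Ahr-/- BMMs at 20 h, where same-numbered libraries deviated together, but within the time point it called Srxn1 there as well (0.17, edgeR adjusted p = 0.00360), beside 64.6% of all genes. The median log2 fold change of the 10 was 0.24 and 0.54 in Ahr+/+ BMMs at 3 h and 20 h and 0.32 and 0.53 in Ahr-/- BMMs, whereas that of all genes lay between -0.10 and 0.02.

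**Figure D2:**
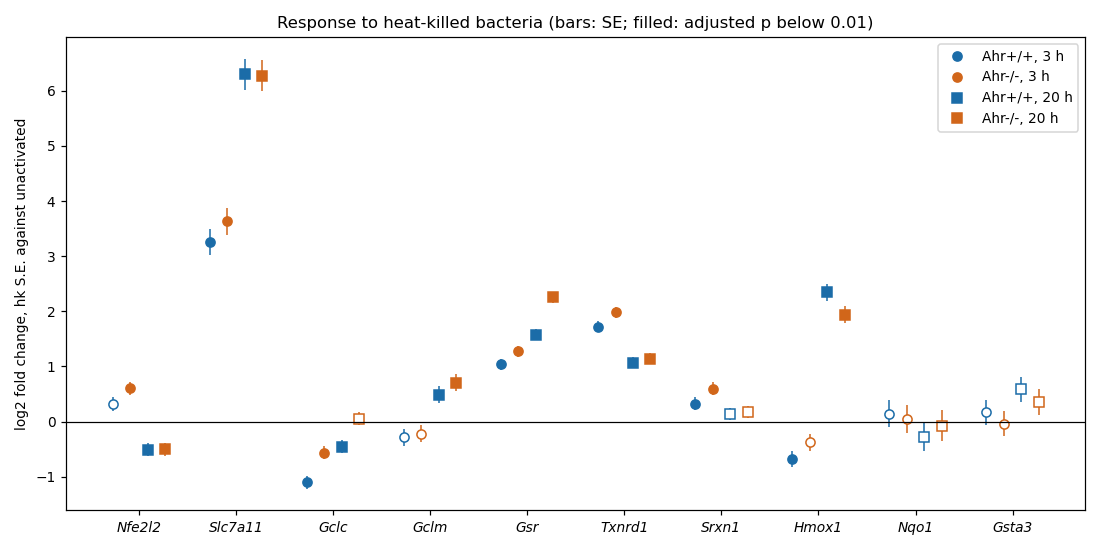
Log2 fold change of the 10 genes with hk S.E. against unactivated BMMs (y axis) in Ahr+/+ (blue) and Ahr-/- (orange) BMMs at 3 h (circles) and 20 h (squares), with bars for the SE and filled symbols for an adjusted p below 0.01. Slc7a11 reached 6.30 and 6.27 at 20 h, and Hmox1 and Nfe2l2 lay on opposite sides of 0 at 3 h and 20 h.

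Nfe2l2 encodes NRF2 itself, whose activity is set mainly by protein turnover. In unactivated Ahr+/+ BMMs it stood at 234, 253, 225 and 248 CPM at 3 h and 228, 239, 265 and 261 CPM at 20 h, and with hk S.E. at 294, 252, 357 and 295 CPM at 3 h and 163, 182, 179 and 174 CPM at 20 h. The groups overlapped by 1 library at 3 h and were separate at 20 h, when all activated libraries were the lower. The log2 fold change was 0.32 ± 0.12 (SE, edgeR adjusted p = 0.0183) at 3 h, which did not pass, and -0.51 ± 0.12 (edgeR adjusted p = 0.000206) at 20 h, a 1.42-fold fall. Nfe2l2 rose in Ahr-/- BMMs at 3 h by 0.60 (edgeR adjusted p = 2.01e-05) from 205 to 255 CPM to 391, 387, 292 and 286 CPM, and fell at 20 h by 0.51 on the log2 scale (edgeR adjusted p = 0.000253). The Ahr-/- libraries of replicates 1 and 2 stood above those of replicates 3 and 4 in all 3 activated groups at 3 h, at 387 to 459.8 against 279.9 to 301 CPM. The call of Ahr+/+ BMMs at 3 h was gained without replicate 1, 2 or 4 of the DMSO group with hk S.E., where the lowest adjusted p was 0.00197.

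Slc7a11, the subunit of the cystine/glutamate exchanger xCT that brings in cystine for glutathione, responded most. In unactivated Ahr+/+ BMMs it stood at 20.2, 22.3, 29.5 and 15.5 CPM at 3 h, and with hk S.E. at 209, 173, 277 and 178 CPM. At 20 h the unactivated libraries lay at 3.35, 4.84, 6.35 and 2.34 CPM, and those with hk S.E. at 361, 344, 301 and 276 CPM. Every activated library lay above every unactivated one of its time point, and the unactivated level was lower at 20 h than at 3 h. The rise was 3.26 ± 0.24 on the log2 scale (9.57-fold, edgeR adjusted p = 8.52e-18) at 3 h and 6.30 ± 0.28 (78.9-fold, edgeR adjusted p = 4.29e-27) at 20 h. Ahr-/- BMMs gave 12.4-fold at 3 h and 77.4-fold at 20 h, from 15.2 to 21.9 CPM to 185, 194, 293 and 279 CPM, and from 2.97 to 5.11 CPM to 279, 238, 356 and 403 CPM.

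Gclc and Gclm encode the catalytic and the modifier subunit of glutamate-cysteine ligase, the rate-limiting enzyme of glutathione synthesis, and their calls differed. Gclc fell at 3 h in Ahr+/+ BMMs from 35.5, 36.0, 38.7 and 37.7 CPM to 18.1, 14.8, 20.7 and 15.5 CPM, with no overlap. Its log2 fold change was -1.10 ± 0.12 (2.14-fold lower, edgeR adjusted p = 6.98e-12). At 20 h it fell from 26.9 to 29.0 CPM to 20.8, 19.6, 21.8 and 18.8 CPM, or by 0.46 on the log2 scale (edgeR adjusted p = 0.000462). The Ahr-/- BMMs showed a fall of Gclc by 0.57 at 3 h (edgeR adjusted p = 2.58e-05), and at 20 h its log2 fold change was 0.05 (edgeR adjusted p = 0.717), with 28.9 to 30.0 CPM unactivated and 28.2 to 31.5 CPM activated. Gclm did not pass at 3 h, with a log2 fold change of -0.29 (edgeR adjusted p = 0.0976) in Ahr+/+ and -0.22 (edgeR adjusted p = 0.201) in Ahr-/- BMMs. At 20 h it rose in Ahr+/+ BMMs from 57.4, 66.9, 73.4 and 65.1 CPM to 87.1, 81.8, 112 and 87.6 CPM, by 0.49 ± 0.15 (1.40-fold, edgeR adjusted p = 0.00453), and in Ahr-/- BMMs from 68.9 to 80.2 CPM to 128, 133, 115 and 126 CPM, by 0.70 (edgeR adjusted p = 7.82e-05). The groups of Gclm at 20 h did not overlap in either genotype, yet the Ahr+/+ call was lost without unactivated replicate 1 or 4 or without activated replicate 3, where the highest adjusted p was 0.0362.

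Gsr encodes glutathione reductase, which returns oxidized glutathione to its reduced form. It rose from 49.3, 47.2, 60.1 and 53.8 CPM to 108, 93.0, 132 and 99.6 CPM in Ahr+/+ BMMs at 3 h and from 36.1, 35.5, 41.7 and 39.3 CPM to 100.5, 113, 129 and 113 CPM at 20 h. The log2 fold changes were 1.04 ± 0.10 (2.06-fold, edgeR adjusted p = 6.44e-14) and 1.58 ± 0.10 (2.98-fold, edgeR adjusted p = 9.46e-21). Gsr in Ahr-/- BMMs rose from 46.8 to 55.2 CPM to 111, 126, 131 and 123 CPM at 3 h (2.42-fold) and from 35.4 to 39.0 CPM to 179.8, 193, 171 and 171 CPM at 20 h (4.76-fold). All 4 groups with hk S.E. were separate from their unactivated groups.

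Txnrd1, the cytosolic thioredoxin reductase, rose more at 3 h than at 20 h. In Ahr+/+ BMMs it went from 271, 257, 304 and 261 CPM to 922, 785, 1075 and 814 CPM at 3 h and from 179.9, 174, 188 and 182 CPM to 385, 351, 401 and 381 CPM at 20 h. These are log2 fold changes of 1.72 ± 0.10 (3.29-fold, edgeR adjusted p = 3.12e-22) and 1.07 ± 0.10 (edgeR adjusted p = 2.01e-14), with no overlap at either time. The folds in Ahr-/- BMMs were 3.95 and 2.21. Srxn1, sulfiredoxin, which repairs overoxidized peroxiredoxins, moved little. It stood at 272, 242, 314 and 255 CPM in unactivated and 344, 283, 421 and 309 CPM in activated Ahr+/+ BMMs at 3 h. These groups overlapped, and the rise of 0.33 ± 0.11 (edgeR adjusted p = 0.00960) was lost without unactivated replicate 1, 2 or 4 or activated replicate 3, where the highest adjusted p was 0.0504. Srxn1 rose in Ahr-/- BMMs at 3 h by 0.60 (1.51-fold, edgeR adjusted p = 6.07e-06) without overlap, from 228 to 258 CPM to 323 to 427 CPM. At 20 h its log2 fold change was 0.13 in Ahr+/+ and 0.17 in Ahr-/- BMMs, and neither passed.

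Hmox1, heme oxygenase-1, which breaks heme down to biliverdin, iron and carbon monoxide, fell at 3 h and rose at 20 h in Ahr+/+ BMMs. At 3 h it stood there at 265, 247, 376 and 281 CPM unactivated and at 188, 150.2, 223 and 168 CPM with hk S.E., a separate and lower group with a log2 fold change of -0.68 ± 0.15 (1.60-fold lower, edgeR adjusted p = 9.38e-05). At 20 h it stood at 271, 299, 319 and 323 CPM unactivated and at 1475, 1466, 1865 and 1358 CPM activated, higher by 2.35 ± 0.16 (5.08-fold, edgeR adjusted p = 2.05e-19). The log2 fold change of Ahr-/- BMMs at 3 h was -0.38 (edgeR adjusted p = 0.0252), which did not pass, with overlapping groups at 217 to 326 and 206 to 223 CPM. At 20 h Hmox1 rose 3.84-fold there (edgeR adjusted p = 2.39e-16), to 1405, 1363, 1008 and 968 CPM from 258 to 374 CPM.

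Nqo1 (NAD(P)H quinone dehydrogenase 1, which reduces quinones by a pair of electrons) and Gsta3 (a glutathione S-transferase of the alpha class) are the detoxifying enzymes of the set. Nqo1 stood at 9.25, 6.70, 11.8 and 9.49 CPM in unactivated and 9.56, 10.1, 12.8 and 8.34 CPM in activated Ahr+/+ BMMs at 3 h. At 20 h it stood at 2.76, 3.11, 2.84 and 2.85 CPM and at 2.88, 1.42, 3.27 and 2.00 CPM. The groups overlapped at both times, and log2 fold changes with hk S.E. lay between -0.28 and 0.14 over both genotypes, all with an edgeR adjusted p of at least 0.348. For Gsta3 they lay between -0.04 and 0.58, the highest being that of Ahr+/+ BMMs at 20 h (edgeR adjusted p = 0.0216), from 2.34, 2.70, 4.12 and 3.36 CPM to 3.68, 4.26, 6.00 and 4.77 CPM, which passed without unactivated replicate 3 (adjusted p = 0.00837).

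The effect of hk S.E. itself changed between the time points for 7 of the 10 genes in either genotype, when the response at 20 h was set against that at 3 h in the same model. In this comparison 47.8% of all genes were called in Ahr+/+ and 44.7% in Ahr-/- BMMs. The response was larger at 20 h for Slc7a11 (by 3.04 on the log2 scale in Ahr+/+ and 2.64 in Ahr-/- BMMs) and for Hmox1 (3.03 and 2.32). It was higher at 20 h too for Gclm (0.78 and 0.93), Gclc (0.64 and 0.62) and Gsr (0.54 and 0.98), which for Gclc means a smaller fall. It was lower at 20 h for Txnrd1 (-0.65 and -0.84) and Nfe2l2 (-0.83 and -1.11), with edgeR adjusted p between 9.18e-18 and 0.00192 over these 14 results. In Ahr+/+ BMMs, leaving out replicate 2 of the 3 h DMSO group with hk S.E. kept 4 of the 7 calls, and Gclm, Gclc and Gsr then had adjusted p of up to 0.0191, 0.0103 and 0.0129. Gclm was also lost without replicate 4 of that group, and Gclc in Ahr-/- BMMs without replicate 1 of theirs (adjusted p = 0.0107).

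The effect of hk S.E. differed between the genotypes for 1 of the 10 genes. At 20 h Gsr rose by 0.68 ± 0.14 more on the log2 scale in Ahr-/- than in Ahr+/+ BMMs (edgeR adjusted p = 0.000566), where 4.41% of all genes were called. At 3 h none of the 10 was called by edgeR, beside 0.0138% of all genes, and 1 had an unadjusted p under 0.05, as did 5.96% of all genes. This was Gclc, whose response differed by 0.53 at 3 h (edgeR adjusted p = 0.386) and by 0.51 at 20 h (edgeR adjusted p = 0.0357). DESeq2 and limma on VST values called 0 of the 10 at 3 h as well.

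Ligand moved no gene of the 10 past the threshold in the fit without a replicate block, in any of the 8 comparisons with DMSO in activated BMMs, whereas a block for the replicate number called Nqo1, Txnrd1 and Srxn1 with I3C in Ahr+/+ BMMs at 20 h. Without the block 0 of the 80 tests passed by edgeR, 17 had an unadjusted p under 0.05 and 68 gave a value above 0. DESeq2 called 1, Nqo1 with I3C in Ahr+/+ BMMs at 20 h, and limma on the deposited VST values called 0. Of all genes, BaP moved 0.0482% and I3C 0.131% in Ahr+/+ BMMs at 3 h. By 20 h these shares were 0.234% and 0.509%. The Ahr-/- BMMs had 0.0275% with BaP and 0.0206% with I3C called at 3 h, against 0.0138% and 0.206% at 20 h. An unadjusted p under 0.05 was found in Ahr+/+ BMMs for 1 of the 10 with BaP at 3 h (2.68% of all genes), for 4 with I3C at 3 h (5.12%), for 2 with BaP at 20 h (10.4%) and for 6 with I3C at 20 h (5.72%). For the knockout the counts were 0 with BaP at either time (5.93% and 1.77%) and 2 with I3C at either time (5.92% and 4.62%). BaP and I3C were set against the same DMSO libraries, so their values are not independent of each other.

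The block is given here because same-numbered libraries deviated together from their group means with I3C in Ahr+/+ BMMs at 20 h (r of 0.202 to 0.255 over genes in the 4 pairs) and with both ligands in Ahr-/- BMMs (0.252 to 0.643). With I3C in Ahr+/+ BMMs at 20 h it gave log2 fold changes of 1.11 for Nqo1 (edgeR adjusted p = 1.12e-05), 0.24 for Txnrd1 (edgeR adjusted p = 0.00166) and 0.33 for Srxn1 (edgeR adjusted p = 0.00672), beside 1.01% of all genes called. With the block set within the time point, Gclm (0.33, edgeR adjusted p = 0.00180) and Gsta3 (0.58, edgeR adjusted p = 0.00192) were called too, which makes 5 of the 10 beside 1.34% of all genes. The knockout had 0 of the 10 called under the block. Within the time point it had 1 with I3C at 3 h (Srxn1, 0.30, edgeR adjusted p = 0.000878, beside 0.227% of all genes) and 1 at 20 h (Txnrd1, 0.19, edgeR adjusted p = 0.00857, beside 0.564%). In the other 3 comparisons of ligand in Ahr+/+ BMMs not every pair had r above 0.1, the limit used here. With BaP at 20 h r was 0.0988 to 0.230. Calls under the block in these comparisons are given in the part on processing.

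Nqo1 at 3 h in Ahr+/+ BMMs stood at 15.9, 12.5, 25.0 and 14.98 CPM with BaP and 17.4, 14.3, 21.5 and 13.6 CPM with I3C, beside 8.34 to 12.8 CPM with DMSO. All libraries with I3C lay above all with DMSO, whereas 1 with BaP lay just under the highest DMSO library. The log2 fold changes were 0.75 with BaP (95% interval 0.27 to 1.24, edgeR adjusted p = 0.940) and 0.71 with I3C (0.22 to 1.19, edgeR adjusted p = 0.390). At 20 h Nqo1 stood at 4.51, 2.29, 5.88 and 3.27 CPM with BaP and 5.73, 3.18, 7.96 and 3.96 CPM with I3C, beside 2.88, 1.42, 3.27 and 2.00 CPM with DMSO. Replicate 2 was the lowest library of all 3 groups, and the groups overlapped. The log2 fold change was 0.75 with BaP (0.23 to 1.27, edgeR adjusted p = 0.196) and 1.13 with I3C (0.61 to 1.65, edgeR adjusted p = 0.0112, DESeq2 adjusted p = 0.00255). Under the replicate block the I3C value passed, as given above, and so did the BaP value, where not every pair had r above 0.1. Same-numbered libraries were higher with BaP than with DMSO by 0.64, 0.67, 0.84 and 0.69 on the log2 scale. Without the block the I3C value passed without I3C replicate 2 or DMSO replicate 3, where the lowest adjusted p was 0.00436.

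In Ahr-/- BMMs Nqo1 stood lower and closer together. It lay at 4.30, 4.39, 6.62 and 5.37 CPM with DMSO, 4.75, 4.03, 6.83 and 8.03 CPM with BaP and 5.23, 5.59, 8.42 and 7.08 CPM with I3C at 3 h, and at 1.65 to 1.95, 1.54 to 1.99 and 1.41 to 2.39 CPM at 20 h. These groups overlapped. At 3 h the log2 fold change was 0.19 with BaP and 0.35 with I3C, and at 20 h 0.07 with either, with intervals that held 0 and reached up to 0.85. The test of the difference between the genotypes gave -0.56 (BaP) and -0.36 (I3C) at 3 h and -0.68 and -1.06 at 20 h, and none was called. The last of these, with a 95% interval of -1.81 to -0.30, had an unadjusted p of 0.00707 and an edgeR adjusted p of 0.987, so a difference in the response of Nqo1 between the genotypes was not shown. In these 4 comparisons 0.0138% of all genes were called with BaP at 3 h and 0% in the other 3, and DESeq2 and limma on VST values called 0 of the 10. At an unadjusted p under 0.05 stood 0 of the 10 with either ligand at 3 h (2.56% of all genes with BaP and 1.66% with I3C) and at 20 h 0 with BaP (4.67%) and 1 with I3C (1.97%).

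With I3C the other genes gave small values of 1 sign. In Ahr+/+ BMMs all 10 log2 fold changes were above 0 at 3 h (0.04 to 0.71, median 0.25), where 62.4% of all genes lay above 0 with a median of 0.03, and all 10 at 20 h (0.07 to 1.13, median 0.29), where 51.3% did with a median of 0.00. The Ahr-/- BMMs had 10 of 10 above 0 at 3 h (median 0.19, beside 55% of all genes) and 9 of 10 at 20 h (median 0.13, beside 49.8%). With BaP the medians of the 10 were 0.01 and 0.15 in Ahr+/+ and 0.07 and 0.06 in Ahr-/- BMMs. Of the 10, 5 lay above 0 with BaP in Ahr+/+ BMMs at 3 h and 8 at 20 h. In Ahr-/- BMMs 8 did at either time, and 49.4% to 51.1% of all genes did over these 4 comparisons. At 20 h with I3C in Ahr+/+ BMMs, Srxn1 lay at 215, 181, 215 and 191 CPM against 159, 150.1, 166 and 159 CPM with DMSO, Txnrd1 at 472, 404, 490.4 and 432 CPM against 385, 351, 401 and 381 CPM, and Slc7a11 at 505, 427, 446 and 383 CPM against 361, 344, 301 and 276 CPM. For these 3 and for Gclc (22.9, 22.4, 25.3 and 22.8 against 20.8, 19.6, 21.8 and 18.8 CPM), 4 genes in all, the I3C libraries lay above all DMSO libraries, as did those of 1.92% of all genes. Their log2 fold changes of 0.34 (Srxn1, 95% interval 0.11 to 0.56), 0.24 (Txnrd1), 0.46 (Slc7a11) and 0.21 (Gclc) had edgeR adjusted p of 0.228 and above without the block. Gsta3 gave 0.61 in Ahr+/+ (edgeR adjusted p = 0.373) and 0.51 in Ahr-/- BMMs (edgeR adjusted p = 0.915) at 20 h with I3C. Hmox1 at 20 h stood at 2019.8, 1960.2, 2053 and 1618 CPM with BaP and at 1674, 1693, 1893 and 1588 CPM with I3C in Ahr+/+ BMMs, and its log2 fold changes against DMSO were 0.31 (edgeR adjusted p = 0.458) and 0.15.

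**Figure D3:**
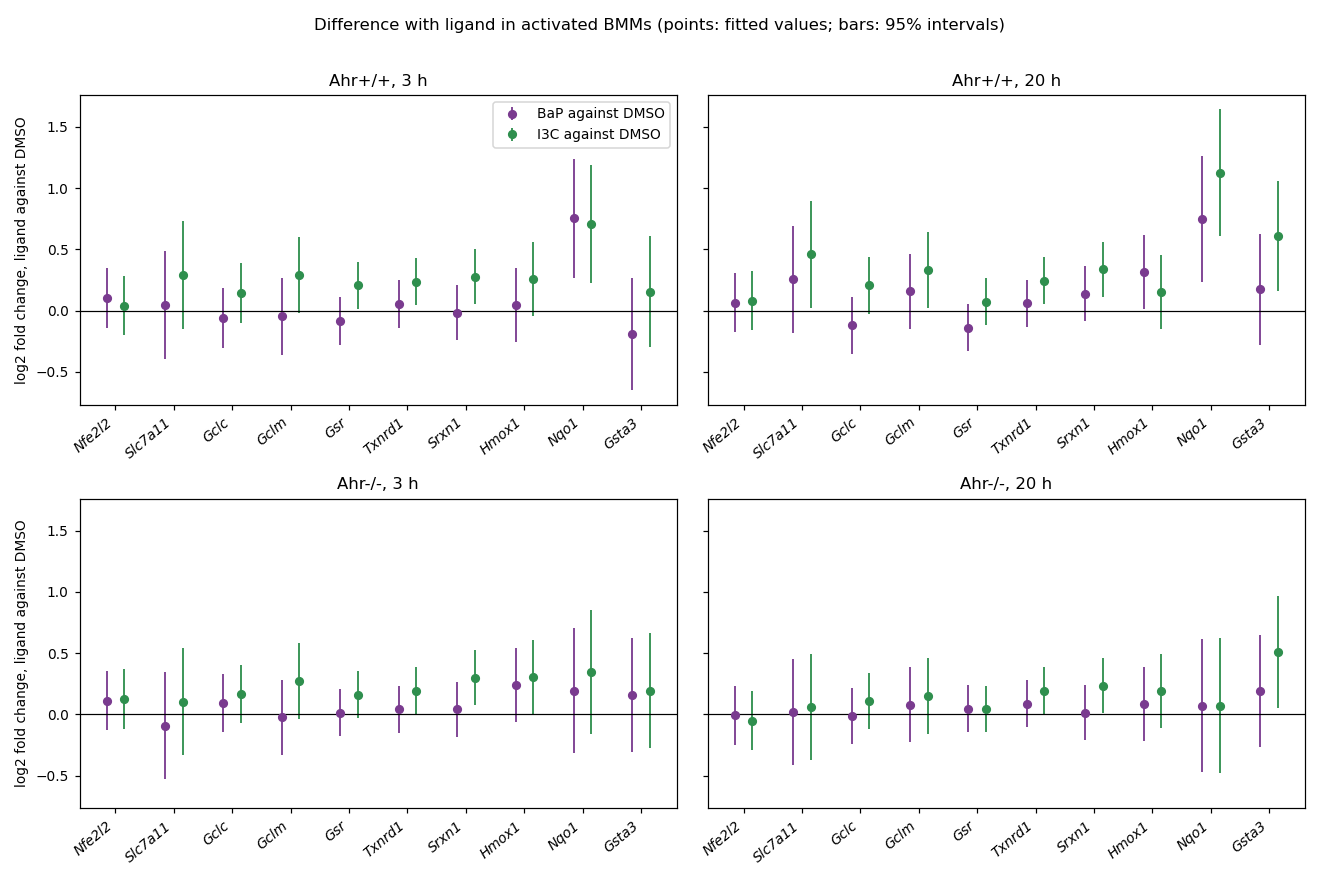
Log2 fold change of the 10 genes with BaP (purple) or I3C (green) against DMSO in activated BMMs (y axis), by genotype and time point, with bars for the 95% interval of each value in the fit without a replicate block. Nqo1 in Ahr+/+ BMMs lay at 0.75 and 0.71 at 3 h and at 0.75 and 1.13 at 20 h, and in Ahr-/- BMMs at 0.07 to 0.35 with intervals that cross 0.

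BaP and I3C differed in structure and in dose, 1 µM against 10 µM, so the direct comparison is of cultures as they were dosed. In 40 tests over both genotypes and time points none of the 10 genes was called by edgeR, DESeq2 or limma on VST values, and 6 results had an unadjusted p under 0.05. In Ahr+/+ BMMs 0.11% of all genes were called at 3 h and 0.282% at 20 h, and in the knockout 0.0206% and 0.186%. The 6 were 3 genes in Ahr+/+ BMMs at 3 h (4.16% of all genes), 2 at 20 h (5.71%), 1 in Ahr-/- BMMs at 3 h (3.12%) and 0 at 20 h (3.23%). The value with BaP was the higher in 6 of the 40, where it was the higher for 37.1% to 50.3% of all genes in these comparisons. The 40 values share libraries and are not independent of each other. The largest differences of BaP from I3C in Ahr+/+ BMMs were those of Gsta3 (-0.35 at 3 h and -0.43 at 20 h), Gclm (-0.34 at 3 h) and Nqo1 (-0.38 at 20 h, 95% interval -0.88 to 0.12). The lowest adjusted p was 0.393, for Gclc at 20 h (-0.33), whose 4 libraries with BaP (19.3, 18.1, 21.6 and 15.6 CPM) all lay under those with I3C. For Nqo1 at 3 h the difference was 0.04, with a 95% interval of -0.43 to 0.52, so differences within that interval are not excluded. The change of a ligand response between the time points was called for none of the 10 in 40 tests by edgeR, DESeq2 or limma on VST values, with 0 at an unadjusted p under 0.05. Of all genes, 0.0275% were called with I3C in Ahr+/+ BMMs and 0% in the other 3 comparisons, and the shares at an unadjusted p under 0.05 were 5.05% (BaP) and 2.35% (I3C) in Ahr+/+ and 1.53% and 1.41% in Ahr-/- BMMs.

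Between the genotypes 4 of the 10 genes were called in at least 1 of the 8 comparisons. Nqo1 was lower in Ahr-/- BMMs, and Gclc was called higher in activated BMMs except with DMSO at 3 h. Gsr was higher in activated BMMs at 20 h, and Hmox1 was lower with BaP at 20 h. In activated BMMs at 20 h genotype cannot be told apart from the series of library identifiers described below. At 3 h 1 of the 10 was called with DMSO and hk S.E., 2 with BaP and 2 with I3C, beside 2.83%, 4.88% and 2.85% of all genes. At 20 h 2, 4 and 3 of the 10 were called in these groups, beside 12.5%, 23.3% and 15.6% of all genes. Of the 80 tests 8 were called higher and 6 lower in Ahr-/- BMMs. These 14 calls are not independent of each other, since the study's methods give 4 mice per genotype for all groups. In activated Ahr-/- BMMs replicates 1 and 2 also stood apart from 3 and 4 over all genes, while the tests treat all 4 libraries as independent. In unactivated BMMs 0 of the 10 were called by edgeR, DESeq2 or limma on VST values, with 2 at an unadjusted p under 0.05 at 3 h and 1 at 20 h, as had 9.99% and 12.5% of all genes, of which 1.21% were called at 3 h and 0.702% at 20 h.

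Nqo1 was lower in Ahr-/- BMMs in all 8 comparisons. At 3 h the unactivated libraries stood at 4.28, 4.70, 4.93 and 6.28 CPM in Ahr-/- and at 6.70 to 11.8 CPM in Ahr+/+ BMMs, without overlap (-0.88 on the log2 scale, edgeR adjusted p = 0.0352). With DMSO and hk S.E. the difference was -0.98 ± 0.25 (1.97-fold lower, edgeR adjusted p = 0.00999), with BaP -1.53 (2.90-fold lower, edgeR adjusted p = 2.39e-05) and with I3C -1.34 (2.52-fold lower, edgeR adjusted p = 0.000268). None of these groups overlapped between the genotypes, and beside these calls 2.83%, 4.88% and 2.85% of all genes were called. The value with DMSO lay at the threshold: 7 of 8 fits without 1 library lost it, with adjusted p of up to 0.0655, the exception being Ahr-/- replicate 3. At 20 h the difference was -0.63 unactivated (edgeR adjusted p = 0.265), -0.43 with DMSO and hk S.E. (edgeR adjusted p = 0.288), -1.10 with BaP (2.15-fold lower, edgeR adjusted p = 0.000611) and -1.48 with I3C (2.79-fold lower, edgeR adjusted p = 2.03e-05), where 12.5%, 23.3% and 15.6% of all genes were called in the 3 activated comparisons. The BaP call at 20 h was lost without Ahr+/+ replicate 3 (adjusted p = 0.0117).

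Gclc was not called between unactivated genotypes, at -0.07 and 0.08 on the log2 scale, and was higher in activated Ahr-/- BMMs. At 20 h with DMSO and hk S.E. it stood at 30.0, 31.5, 28.2 and 31.5 CPM in Ahr-/- and at 20.8, 19.6, 21.8 and 18.8 CPM in Ahr+/+ BMMs, 2 separate groups that differed by 0.58 ± 0.12 (1.50-fold, edgeR adjusted p = 0.000143). With BaP Gclc stood at 27.0, 35.2, 29.0 and 29.2 CPM and was higher by 0.69 (1.61-fold, edgeR adjusted p = 3.43e-06), and with I3C at 30.8, 33.8, 32.5 and 33.5 CPM and higher by 0.48 (edgeR adjusted p = 0.00123). At 3 h the differences were 0.46 with DMSO (edgeR adjusted p = 0.0113), 0.62 with BaP (edgeR adjusted p = 0.000413) and 0.48 with I3C (edgeR adjusted p = 0.00736). The I3C groups overlapped through Ahr+/+ replicate 3, at 27.0 CPM, and that call was lost without replicate 1, 2 or 4 of either genotype (adjusted p of up to 0.0628). The DMSO value at 3 h passed without Ahr+/+ replicate 3 or Ahr-/- replicate 1, with a lowest adjusted p of 0.00288.

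Gsr differed at 20 h in activated BMMs. With DMSO and hk S.E. it stood at 179.8, 193, 171 and 171 CPM in Ahr-/- against 100.5, 113, 129 and 113 CPM in Ahr+/+ BMMs (0.65 ± 0.10, 1.57-fold, edgeR adjusted p = 9.95e-07). With BaP it stood at 186, 194, 184 and 173 against 97.1, 93.0, 128 and 95.9 CPM (0.83, 1.78-fold, edgeR adjusted p = 7.73e-10), and with I3C at 193, 196, 172 and 175 against 113, 117, 140.0 and 109 CPM (0.62, 1.54-fold, edgeR adjusted p = 1.70e-06). The genotypes were separate in all 3. Unactivated libraries gave -0.05 at 3 h and -0.03 at 20 h, and at 3 h the activated groups gave 0.14 to 0.28, none called. Hmox1 with BaP at 20 h stood at 1619, 1316, 970.2 and 1122 CPM in Ahr-/- and 1618 to 2053 CPM in Ahr+/+ BMMs. This is a difference of -0.61 ± 0.15 (1.52-fold lower, edgeR adjusted p = 0.00121), with 1 Ahr-/- library level with the lowest Ahr+/+ library. It was lost without Ahr-/- replicate 3 (adjusted p = 0.0122), while with DMSO and I3C at 20 h the differences of -0.38 and -0.34 did not pass. As for Nfe2l2 at 3 h, the Ahr-/- libraries of replicates 1 and 2 stood above those of replicates 3 and 4 for Hmox1 in all groups at 20 h.

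The other genes gave no call between the genotypes in the fit without covariates. Gsta3 was lower in Ahr-/- BMMs in all 8 comparisons, with log2 differences of -0.80 to -0.45 at 3 h and -0.49 to -0.18 at 20 h and edgeR adjusted p of 0.0253 and above. With the identifier series described below as a covariate the values at 20 h lay between -0.03 and 0.11, 3 of 4 above 0, and that with DMSO at 3 h was called (-0.99, edgeR adjusted p = 0.00546). With DMSO and hk S.E. at 3 h it stood at 4.55, 4.48, 5.87 and 6.96 CPM against 8.43, 6.79, 13.01 and 9.83 CPM in Ahr+/+ BMMs, and the highest Ahr-/- library overlapped the lowest Ahr+/+ library. Gclm with DMSO at 20 h was separate and higher in Ahr-/- BMMs (0.44, edgeR adjusted p = 0.0326). For Txnrd1, Srxn1, Slc7a11 and Nfe2l2 no difference between the genotypes passed, and the values lay between -0.41 (Slc7a11 with I3C at 20 h) and 0.26 (Nfe2l2 with I3C at 3 h).

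**Figure D4:**
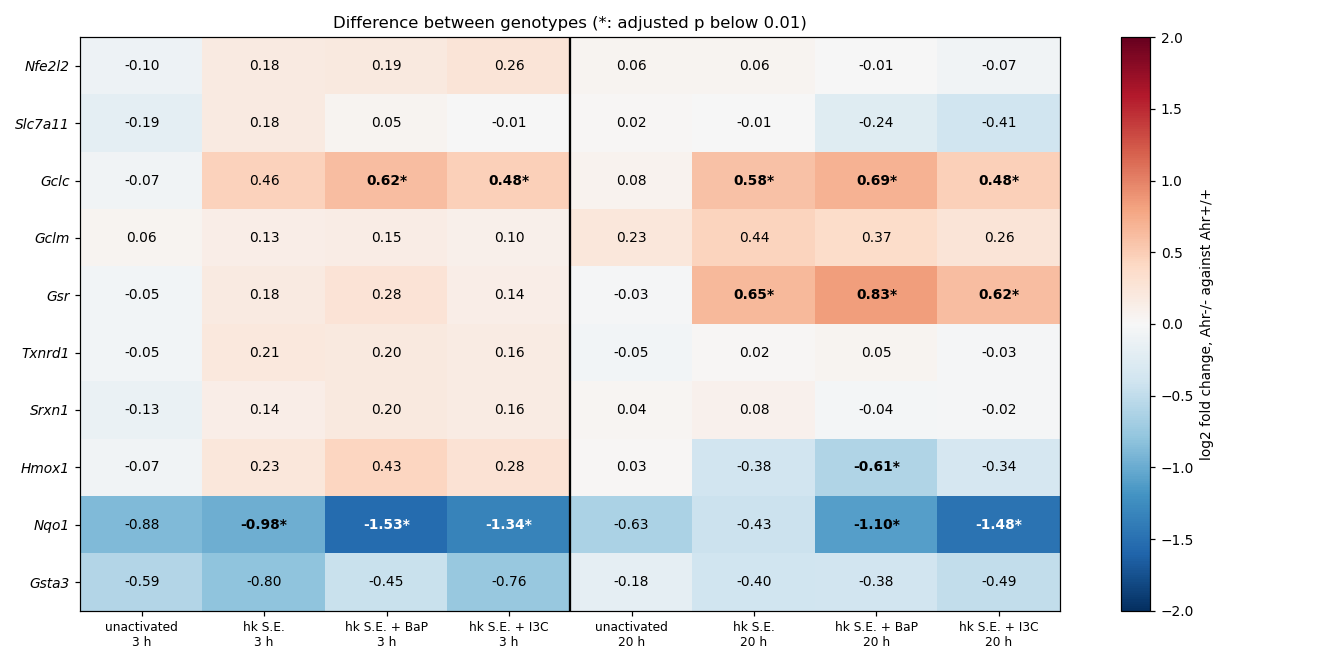
Log2 fold change of Ahr-/- against Ahr+/+ BMMs for the 10 genes (rows) in the 8 combinations of treatment and time point (columns), with red for higher and blue for lower in Ahr-/- and an asterisk for an adjusted p below 0.01. Nqo1 was below 0 in all 8 columns, from -0.43 to -1.53, and Gclc and Gsr were called higher in the 3 activated columns at 20 h. In these 3 columns genotype and the series of library identifiers cannot be told apart.

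The labels give each library an identifier, and these fall into 4 number series whose meaning is not stated. All activated Ahr+/+ libraries at 20 h belong to 1 series and all Ahr-/- libraries at 20 h to another, so that series and genotype cannot be told apart there within a series. At 3 h, within the series that holds both genotypes, the log2 difference of Ahr-/- from Ahr+/+ BMMs for Nqo1 was -1.01 with DMSO (4 against 2 libraries), -1.54 with BaP (4 against 3) and -1.34 with I3C (3 against 3). For Gclc it was 0.39, 0.63 and 0.42. A fit with the series as a covariate took the shift between the 2 series found at 20 h in activated BMMs from unactivated libraries alone. It therefore cannot settle the calls of activated BMMs at 20 h. This fit kept the calls of Nqo1 with BaP and I3C at 3 h (edgeR adjusted p = 3.58e-05 and 0.000331) and those of Gsr at 20 h (0.73 to 0.94). It also kept the calls of Gclc with BaP and I3C at 3 h (0.58 and 0.49, edgeR adjusted p = 0.00140 and 0.00763) and with BaP at 20 h (0.67, edgeR adjusted p = 0.00118). It lost those of Nqo1 at 20 h (-0.83 with BaP, edgeR adjusted p = 0.0717, and -1.21 with I3C, edgeR adjusted p = 0.0117), of Hmox1 with BaP (-0.28, edgeR adjusted p = 0.319), of Gclc with DMSO and I3C at 20 h (0.56 and 0.46, edgeR adjusted p = 0.0164 and 0.0357) and of Nqo1 with DMSO at 3 h (-1.08, edgeR adjusted p = 0.0125).

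The wider pathway was followed in 6 lists of 70 further genes, of which 67 were tested. With hk S.E. in Ahr+/+ BMMs 24 of the 67 rose and 15 fell at 3 h, beside the 24.2% and 32.3% of all genes, and 28 rose and 27 fell at 20 h, beside 29.9% and 28.7%. In Ahr-/- BMMs 23 rose and 15 fell at 3 h (25.5% and 31.8% of all genes) and 27 rose and 26 fell at 20 h (28.3% and 26%). The counts of the single lists below stand beside the same shares of all genes. Their medians lay between -0.03 and 0.11. Ligand moved 0 of the 67 past the threshold in any of the 8 comparisons by edgeR without the block, beside 0.0138% to 0.509% of all genes. Of the 67, 0 to 12 had an unadjusted p under 0.05, as had 1.77% to 10.4% of all genes. Under the replicate block 3 were called with I3C in Ahr+/+ BMMs at 20 h, beside 1.01% of all genes. They were Prdx1 (0.40), a peroxiredoxin, Cat (0.36), catalase, and Ugt1a7c (0.46). Within the time point the block also called Pgd, of the NADPH list, with I3C in Ahr-/- BMMs at 3 h (0.28), beside 0.227% of all genes.

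Of the 9 regulators of NRF2, 7 rose in each of the 4 comparisons with hk S.E. The small MAF genes Maff and Mafk, whose products pair with NRF2, rose in Ahr+/+ BMMs by 3.88 and 3.09 on the log2 scale at 3 h, and Maff by 3.04 at 20 h. Sqstm1, which encodes the KEAP1-binding autophagy receptor p62, rose by 1.61 at 3 h and 3.60 at 20 h. Keap1 itself rose by 1.22 and 0.41. Bach1, a repressor that competes for AREs, fell at 20 h, by 1.27 in Ahr+/+ and 1.60 in Ahr-/- BMMs.

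Among the 17 other glutathione genes tested, 6 rose and 0 fell at 3 h, and 8 rose and 6 fell at 20 h in Ahr+/+ BMMs. Slc3a2, the heavy chain that pairs with the Slc7a11 product in xCT, rose by 0.73 at 3 h and 2.13 at 20 h, and is named for this role after its values were seen. Chac1, which degrades glutathione, rose by 6.68 at 20 h with a value of -0.90 at 3 h that did not pass and rests on 0 to 9 counts per library, and Gstt1, a glutathione S-transferase of the theta class, rose by 2.47 and 2.67. The microsomal transferases Mgst2 and Mgst3 fell by 2.70 and 3.96 at 20 h. Of 12 other thioredoxin and peroxide genes, 6 rose and 2 fell at 3 h and 5 rose and 4 fell at 20 h. Sod2, the mitochondrial superoxide dismutase, rose by 3.69 and 4.57, Prdx5 by 1.67 and 3.60 and Txn1, the substrate of Txnrd1, by 1.09 and 0.76, while Txnip, which binds thioredoxin, fell by 0.68 and 1.36.

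Of the 6 enzymes that make NADPH, 1 rose and 1 fell at 3 h and 2 rose and 3 fell at 20 h in Ahr+/+ BMMs, with a log2 fold change at 20 h of 2.04 for Me1 and -2.49 for Idh1. Of 7 heme and iron genes, 1 rose and 4 fell at 3 h and 2 rose and 3 fell at 20 h. Fth1, the ferritin heavy chain, rose by 0.71 and 2.61 and Slc40a1, the iron exporter ferroportin, fell by 2.66 and 4.42, beside the late rise of Hmox1. Of 16 other genes known as NRF2 targets, 3 rose and 7 fell at 3 h and 4 rose and 10 fell at 20 h. Marco, a scavenger receptor, rose by 1.75 and 6.44, and Ephx1, microsomal epoxide hydrolase, fell by 5.43 at 20 h.

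**Figure D5:**
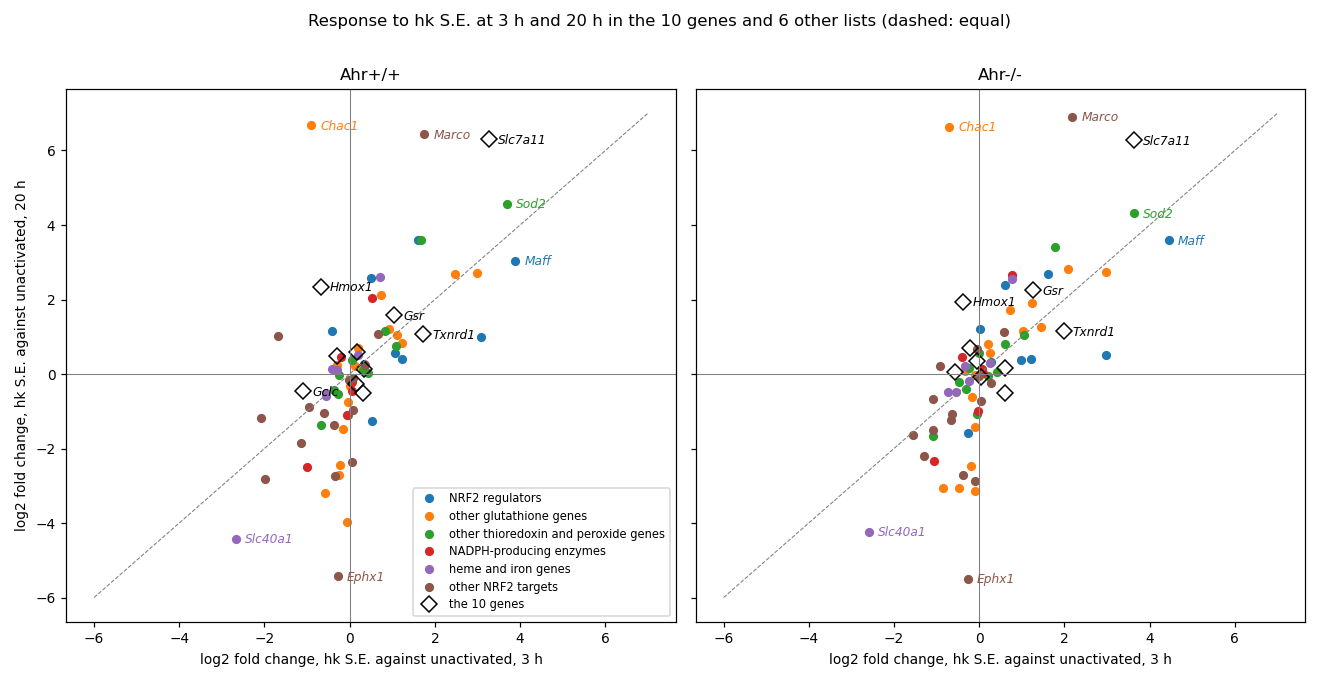
Log2 fold change with hk S.E. at 3 h (x axis) and 20 h (y axis) of the 10 genes (open diamonds) and of the 67 genes of 6 other lists (coloured points) in Ahr+/+ and Ahr-/- BMMs, with a dashed line where both are equal. Slc7a11 (3.26 and 6.30), Marco (1.75 and 6.44) and Chac1 (-0.90 and 6.68) lay far above the line in Ahr+/+ BMMs, and Ephx1 (-5.43 at 20 h) far below.

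Between the genotypes, at most 2 of the 67 were called in either direction in any comparison at 3 h. Of all genes, 1.21% were called at 3 h unactivated, 2.83% with DMSO and hk S.E., 4.88% with BaP and 2.85% with I3C. Of the 67, at 20 h 6 were higher and 7 lower with DMSO and hk S.E., 10 and 10 with BaP and 9 and 8 with I3C. Beside these, 12.5%, 23.3% and 15.6% of all genes were called in either direction. Maff was higher in Ahr-/- BMMs at 20 h by 0.83, 1.09 and 0.87 in these 3 groups and Abcc4, an exporter, by 0.56, 0.90 and 0.62. Sqstm1 was lower, at -0.73, -0.62 and -0.51, and so was Prdx1, at -0.48, -0.91 and -0.82. Ugt1a7c, a glucuronosyltransferase, was lower at 3 h, at -0.996 with BaP and -0.74 with I3C. The call of Chac1 with I3C at 3 h rests on 0 counts in every Ahr+/+ library and 2 to 5 counts in each Ahr-/- library, so no fold is given.

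Across the 16 group means the 10 genes did not follow 1 pattern, as the correlation of log2 CPM described. Pearson's r was 0.93 between Slc7a11 and Gsr, 0.89 between Nqo1 and Gsta3 and 0.86 between Txnrd1 and Srxn1, and it was -0.89 between Hmox1 and Nfe2l2. Within groups, over the deviations of the 64 libraries from their group means, Gclm, Txnrd1 and Srxn1 varied together, with r of 0.88 for Txnrd1 and Srxn1, 0.86 for Gclm and Srxn1 and 0.85 for Gclm and Txnrd1, whereas r was 0.36 for Slc7a11 and Gsr. Nfe2l2 had r between -0.22 and 0.33 with each of the other 9 within groups. The libraries of a group share their treatment, and those of 1 mouse may share more, so these values have no p.

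Over all genes tested, those whose 16 group means followed those of Nqo1 most closely were Papss2 (Pearson's r = 0.96) and Atp6v0d1 (0.94). For Hmox1 they were Rras and Ascc2 (both 0.99), for Slc7a11 Msn and Rad23b (both 0.99), for Txnrd1 Cd14 and Ccdc86 (both 0.99), for Gsr Il17ra (0.99) and Pak1ip1 (0.98) and for Nfe2l2 Tgm2 and Ppp1r18 (both 0.98). Srxn1 was most like Gss (0.97), glutathione synthetase, and Ctbp2 (0.96). Gclc was most like Chml and Fpgs (both 0.94), Gsta3 like Smpdl3a and Eif4enif1 (both 0.92) and Gclm like Snx12 and Ly6c2 (both 0.79). The 16 points of each hold few independent conditions, with hk S.E. and time as the main differences among them.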

How the data were processed

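RNA of 64 BMM cultures was sequenced as paired-end, strand-specific mRNA libraries. Per the labels and the study's methods, the authors demultiplexed reads with bcl2fastq 2.19.0.316, aligned them to mm10 with HISAT2 2.1.0 and deposited raw read-pair counts per GENCODE gene, made with htseq-count of HTSeq 0.9.1 in strand-aware mode. A second deposited table holds log2 values that the authors made from these counts by the variance-stabilizing transformation (VST), which was used here as an alternative. 5 rows per file that name no gene were left out, and 74.9% to 80.8% of entries lay on genes.

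The counts were filtered in R 4.3.3 by filterByExpr of edgeR 4.0.16, whose min.count was 10, which kept 14537 of 55487 genes. Libraries were TMM-normalized, and a quasi-likelihood model of 16 group means was fitted with 48 residual and 5.06 prior degrees of freedom. P-values were adjusted by Benjamini-Hochberg over all genes of a comparison, with a threshold of 0.01, in 36 comparisons. Standard errors come from this fit, and CPM are counts scaled to a common total after TMM. Correlations used log2 CPM with a prior count of 2. Positions on GRCm38 come from GENCODE M21 (the authors' annotation was M22), and promoters are of RefSeq. Scripts were tested on simulated data.

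Groups were taken from the sample titles. The labels do not say whether a replicate number marks a mouse, so p-values measure the spread between these libraries. Deviations of same-numbered libraries from their group means were correlated over genes, and the number was taken as a pairing where r was above 0.1 in 4 of 4 pairs. This held in 6 of 12 comparisons: both ligands at both times in Ahr-/- BMMs (0.252 to 0.643), I3C in Ahr+/+ BMMs at 20 h (0.202 to 0.255) and hk S.E. in Ahr-/- BMMs at 20 h (0.319 to 0.521). Values under a replicate block stand beside those results where they change a call. Replicates of a group were compared and differed by more than sampling noise in every pair. In activated Ahr-/- BMMs replicates 1 and 2, and replicates 3 and 4, were more alike than libraries across these pairs. With DMSO and hk S.E. at 20 h the chi-square per gene between 2 libraries was 15.3 and 19.5 within and 118 to 142 across. The tests treat the 4 libraries as independent. The 10 genes, the other lists and the tests were chosen with earlier results of these data known. The genes named are the 10, from each other list up to 4 called genes that changed most on the log2 scale in an hk S.E. comparison or in the genotype family, and for each of the 10 the 2 genes with the highest correlation. Alternatives were DESeq2 1.42.0, limma 3.58.1 on the VST values, RLE size factors, no filter, a threshold of 0.05, only the groups compared, the identifier series as covariate, the replicate number as a block and leaving out each library in turn.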

Additional observations from a re-analysis of the deposited data

Results flagged for a closer look

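Among the 160 combinations of gene and group, 6 held a library far from the other 3 of its group by Dixon's test, where chance gives about 1 in 20. Nqo1 was low at 1.54 CPM in replicate 2 of Ahr-/- BMMs with BaP at 20 h, where the others lay at 1.94 to 1.99 CPM. Gclm was low at 68.9 CPM in replicate 1 of unactivated Ahr-/- BMMs at 20 h and at 127 CPM in replicate 3 of those with I3C. Gclc was high at 25.3 CPM in replicate 3 of Ahr+/+ BMMs with I3C at 20 h, Gsr at 128 CPM in replicate 3 of Ahr+/+ BMMs with BaP at 20 h and Srxn1 at 176 CPM in replicate 4 of Ahr-/- BMMs with BaP at 20 h.

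An effect that differed between groups in a test of the difference itself was found for Gsr, whose log2 response to hk S.E. at 20 h was 0.68 higher in Ahr-/- than in Ahr+/+ BMMs. Between 20 h and 3 h the response in Ahr+/+ BMMs differed by 3.04 for Slc7a11, 3.03 for Hmox1, 0.78 for Gclm, 0.64 for Gclc, 0.54 for Gsr, -0.65 for Txnrd1 and -0.83 for Nfe2l2. In Ahr-/- BMMs the same differences were 2.64, 2.32, 0.93, 0.62, 0.98, -0.84 and -1.11. All 15 passed edgeR's quasi-likelihood test at an adjusted p below 0.01.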

How the results depend on the processing

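No value for the 10 genes took the opposite sign by more than 1 SE in both fits under any alternative, and no called value changed sign. Of the 360 values, 20 changed sign with the identifier series as covariate, among them Gsta3 between the genotypes at 20 h (0.11 unactivated, 0.07 with DMSO and 0.09 with BaP, in place of -0.18, -0.40 and -0.38), and 4 to 7 under each other setting that refits all libraries or the groups compared, with 5 of 280 under either block and 316 of 3840 when 1 library was left out. With RLE size factors 3 values of the 10 genes gained a call and 1 lost it. Under the replicate block, 2 of the 10 genes passed with I3C in Ahr+/+ BMMs at 3 h (Nqo1, edgeR adjusted p = 0.00749, and Txnrd1, 0.00427) and 3 at 20 h (Nqo1, 1.12e-05, Txnrd1, 0.00166, and Srxn1, 0.00672). With BaP at 20 h 1 passed (Nqo1, 0.00434), and 1 between BaP and I3C at 3 h (Gsr, 0.00851), in place of 0. For hk S.E. by genotype at 20 h the block gave 2 in place of 1. With a block within each time point the counts in Ahr+/+ BMMs were 1 (BaP) and 3 (I3C) at 3 h, 2 and 5 at 20 h, and 3 and 1 between BaP and I3C, and in Ahr-/- BMMs 1 with I3C at either time and 1 between BaP and I3C at 3 h. For hk S.E. by genotype they were 2 at 3 h and 3 at 20 h. For hk S.E. the block also called Gclm (-0.30) and Nfe2l2 (0.31) in Ahr+/+ BMMs at 3 h, Gsta3 (0.58) in Ahr+/+ BMMs at 20 h, Hmox1 (-0.38) in Ahr-/- BMMs at 3 h and, by time, Srxn1 (-0.42) in Ahr-/- BMMs, with adjusted p of 0.000637 to 0.00332, and within the time point Gclm (-0.24) in Ahr-/- BMMs at 3 h. Among these comparisons the limit of r taken as a pairing was met with I3C in Ahr+/+ BMMs at 20 h, with both ligands in Ahr-/- BMMs and for hk S.E. in Ahr-/- BMMs at 20 h. In activated Ahr-/- BMMs replicates 1 and 2 also stood apart from 3 and 4, so r there does not by itself show a pairing of single libraries. The other calls under a block rest on a pairing that neither the labels nor that check gives.

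The counts named in this paragraph are a selection of those that changed. At a threshold of 0.05, 12 single results gained a call. With them 1 gene passed with I3C in Ahr+/+ BMMs at 20 h and 1 between unactivated genotypes at 3 h. Between the genotypes 3 passed with DMSO at 3 h (in place of 1), and 2 for hk S.E. by genotype at 20 h. The 12 also include responses to hk S.E. in single groups. These are Nfe2l2 in Ahr+/+ and Hmox1 in Ahr-/- BMMs at 3 h and Gsta3 in Ahr+/+ BMMs at 20 h. With DESeq2 4 single results gained a call, and with limma on VST values 3. DESeq2 called 1 with I3C in Ahr+/+ BMMs at 20 h and 2 between the genotypes with DMSO at 3 h, as did limma for the latter. Without a filter, where 3 single results lost a call, this count was 0 and that with I3C at 3 h 1 in place of 2. With only the groups compared in a fit, which leaves fewer degrees of freedom, 7 single results lost a call and 3 gained it. The genotype counts at 3 h were then 0 (DMSO), 0 (BaP, in place of 2) and 1 (I3C). That with BaP at 20 h was 2 in place of 4, and that for hk S.E. by genotype at 20 h 2. With the identifier series as covariate 8 single results lost a call and 2 gained it. The genotype counts at 20 h were then 1 (DMSO), 2 (BaP) and 1 (I3C), in place of 2, 4 and 3. That with DMSO at 3 h stayed at 1, with Gsta3 called in place of Nqo1. The counts at 20 h rest on a shift between series taken from unactivated libraries alone, so they settle none of these calls. The cause of these changes was not tested. Leaving out 1 library gave 0 to 1 call with I3C in Ahr+/+ BMMs at 20 h, 0 to 1 between genotypes with DMSO at 3 h, 1 to 2 with I3C at 3 h and 4 to 7 for hk S.E. by time in Ahr+/+ BMMs. Counts of Nqo1 (25 to 844 per library) and Gsta3 (47 to 995) are the smallest, which limits their precision.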
